A study of Sus scrofa with 4 samples.

Results

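The miR-15/16 family is a group of microRNAs (miRNAs) that share a seed, the short 5′ stretch that pairs with target transcripts. Its rows were taken from the table of known miRNAs of pig longissimus dorsi, a long back muscle, by base name with the arm suffix removed (miR-15a, miR-15b, miR-16, miR-195, miR-497, miR-424, miR-322 and miR-503), without use of measured values. This gave 8 of the 271 listed rows, namely miR-15a, miR-15b, miR-16, miR-195, miR-497, both arms of miR-424 and miR-503, while no row was named miR-322. Rows were taken by name and not by sequence, so both arms of miR-424 count as members. Whether each row carries the shared seed was not tested. The study had 4 small RNA libraries, 1 per breed. The indigenous Chinese type comprised the Diannan Small Ear and the Tibetan pig, and the introduced type the Landrace and the Yorkshire pig. Age, sex and the number of animals behind a library are not given in the labels, so p-values measure only the spread between these libraries, which may in part be technical.

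Members of the family lower the output of cyclins, cyclin-dependent kinases and other drivers of cell division, and are tied to exit from the cell cycle. miR-15a and miR-16 are best known from human lymphocytes, where their loss accompanies chronic lymphocytic leukaemia. miR-195 and miR-497 favour quiescence of muscle stem cells in mice, and miR-424 (called miR-322 in rodents) with miR-503 promotes cell cycle withdrawal as mouse myoblasts differentiate. In the RefSeq annotation of the Sscrofa11.1 assembly MIR15A neighbours one miR-16 gene, MIR15B neighbours the other inside SMC4, and MIR195 neighbours MIR497. No locus was found there for miR-424, miR-503 or miR-322. The miR-424/miR-503 cluster below is therefore grouped by name, and its linkage in the pig was not checked. The table held 1 row for miR-16, so its reads cannot be assigned to either locus, and the miR-15/miR-16 cluster below means miR-15a, miR-15b and miR-16 together.

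Total counts to the listed miRNAs were 4500803 and 3592704 in the Diannan Small Ear and Tibetan libraries, and 2507082 and 5346460 in the Landrace and Yorkshire libraries. The 9 rows of striated muscle miRNAs took 17.6%, 90.4%, 21.6% and 96.9% of these counts in the same order, and all had reads in every library except miR-499-3p, at 0 in Diannan Small Ear and Landrace. The rows did not move together after TMM scaling, a scaling by a trimmed mean of ratios. Against Tibetan, Diannan Small Ear had 440-fold less miR-1, 15.2-fold more miR-486 and a ratio of 1.39 for miR-133a-3p. Against Yorkshire, Landrace had 1674-fold less miR-1, more miR-486 as well and a ratio of 0.928 for miR-133a-3p. After TMM scaling, the libraries stood apart in a way that crosses the labelled types. Between the breeds of a type, 64.2% (Diannan Small Ear over Tibetan) and 65.3% (Landrace over Yorkshire) of miRNAs differed at least 2-fold. The share was 13.8% for Diannan Small Ear over Landrace and 25.7% for Tibetan over Yorkshire. Scaled by library totals, Tibetan and Yorkshire were not alike: 154 of 187 miRNAs were at least 2-fold higher in Tibetan and 2 lower. On that scale 6 of 203 were higher and 65 lower for Diannan Small Ear over Landrace. The counts were 77 and 73 of 212 for Diannan Small Ear over Tibetan, and 148 and 15 of 202 for Landrace over Yorkshire. Whether the library labels match the breeds was not tested. Because a few very abundant miRNAs set the totals, levels are given below as TMM-scaled CPM, read counts set to a common library size, with CPM of the library total where the choice turns a direction. Ratios between members within 1 library do not depend on that choice.

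The family made up a small part of each library. It held 6071 reads in Diannan Small Ear, 0.135% of the counts (95% Wilson interval 0.132 to 0.138), and 2612 reads or 0.0727% in Tibetan (0.0700 to 0.0755). It held 5313 reads or 0.212% in Landrace (0.206 to 0.218) and 1760 reads or 0.0329% in Yorkshire (0.0314 to 0.0345). All such intervals treat each read as an independent count and reflect only counting error. No molecular identifiers were used here to recognise reads copied from the same molecule, so the intervals may be too narrow even for that error. They leave out the spread between animals and between library preparations. Intervals that do not overlap therefore separate libraries by read counting only, and do not show a difference between breeds. In bulk tissue, fewer cells of a type and less RNA per cell cannot be told apart.

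The balance between the 3 clusters differed strongly between libraries. The miR-15/miR-16 cluster supplied 90.8% of the family's reads in Diannan Small Ear (95% Wilson interval 90.0 to 91.5) and 58.8% in Tibetan (56.9 to 60.7), and 88.0% in Landrace (87.1 to 88.8) and 75.7% in Yorkshire (73.7 to 77.7). The miR-195/miR-497 cluster supplied 7.18% and 28.3% in the Diannan Small Ear and Tibetan libraries, and 10.2% and 16% in the Landrace and Yorkshire libraries. The miR-424/miR-503 cluster supplied 2.04% and 12.9% in the indigenous libraries in that order, and 1.84% and 8.30% in the introduced ones. miR-16 alone made up 82.5% of the family's reads in Diannan Small Ear and 52.8% in Tibetan, and 82.0% in Landrace and 64.3% in Yorkshire, so it was the larger part in all 4, while the other clusters had their largest share in Tibetan.

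**Figure D1:**
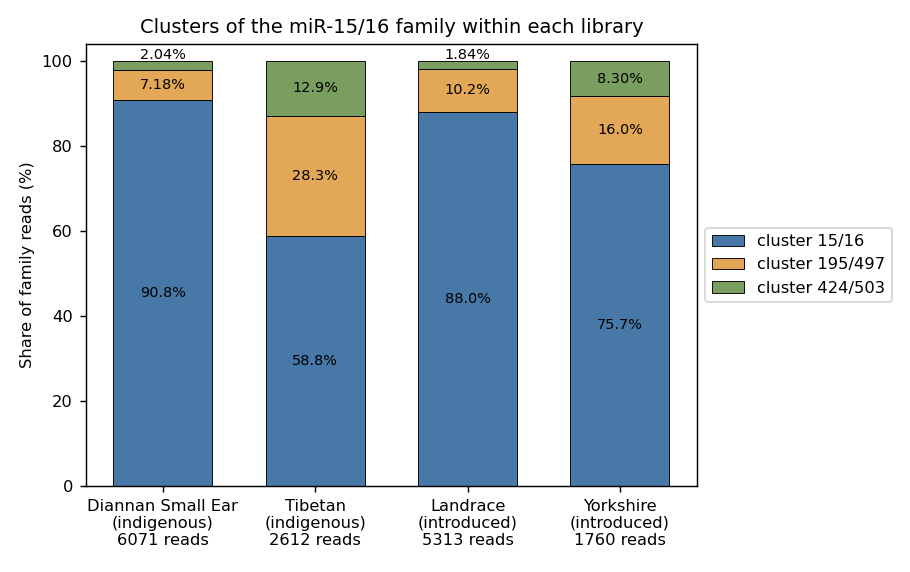
Share of the family's reads (y axis, percent) that fell to each of the 3 clusters in each library (x axis, with the family's read count). The miR-424/miR-503 cluster took 2.04% in Diannan Small Ear against 12.9% in Tibetan, and 1.84% in Landrace against 8.30% in Yorkshire.

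As ratios of read counts, which are independent of scaling, the miR-15/miR-16 cluster exceeded the miR-195/miR-497 cluster 12.6-fold in Diannan Small Ear (95% exact interval 11.5 to 14.0) and 2.08-fold in Tibetan (1.90 to 2.27), and 8.66-fold in Landrace (7.92 to 9.48) and 4.74-fold in Yorkshire (4.17 to 5.41). No 2 of these intervals overlapped, and the ratio spanned 6.08-fold over the 4 libraries. Over the miR-424/miR-503 cluster the excess was 44.4-fold in Diannan Small Ear (37.2 to 53.5) and 4.57-fold in Tibetan (4.06 to 5.16), and 47.7-fold in Landrace (39.1 to 58.9) and 9.13-fold in Yorkshire (7.69 to 10.9). Here Diannan Small Ear and Landrace overlapped, and the span was 10.4-fold. The ratio of miR-195/miR-497 to miR-424/miR-503 spanned less, 2.86-fold, and was highest in Landrace (5.51) and lowest in Yorkshire (1.92). Ratios of reads of different miRNAs are not ratios of molecules, and only their change between libraries is described.

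The ratios of miR-16 to miR-15a and of miR-195 to miR-497, members of 1 cluster each, spanned less than those of miR-16 to miR-195 and to miR-424-5p. miR-16 exceeded miR-15a 11.3-fold in Diannan Small Ear (10.2 to 12.4) and 10.2-fold in Tibetan (8.55 to 12.3), but 15.2-fold in Landrace (13.5 to 17.2) and 5.83-fold in Yorkshire (5.0 to 6.82). The indigenous libraries could not be told apart by this ratio, and the introduced ones lay on either side of them. miR-195 exceeded miR-497, its neighbour, 5.41-fold in Diannan Small Ear (4.17 to 7.12) and 5.60-fold in Tibetan (4.57 to 6.91), and 3.62-fold in Landrace (2.94 to 4.48) and 8.06-fold in Yorkshire (5.54 to 12.1), again with the indigenous libraries within counting error of each other. The spans were 2.60-fold for miR-16 over miR-15a and 2.23-fold for miR-195 over miR-497, against 6.19-fold for miR-16 over miR-195 and 11.6-fold for miR-16 over miR-424-5p. Not every pair followed that division, since miR-15a over miR-15b, of 1 cluster, spanned 4.13-fold and miR-195 over miR-424-5p, of different clusters, 2.85-fold. miR-424-5p over miR-503 spanned 4.18-fold, from 20.4 in Diannan Small Ear (8.46 to 64.2) to 4.88 in Tibetan (3.66 to 6.61), with only 5 miR-503 reads behind the first value.

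**Figure D2:**
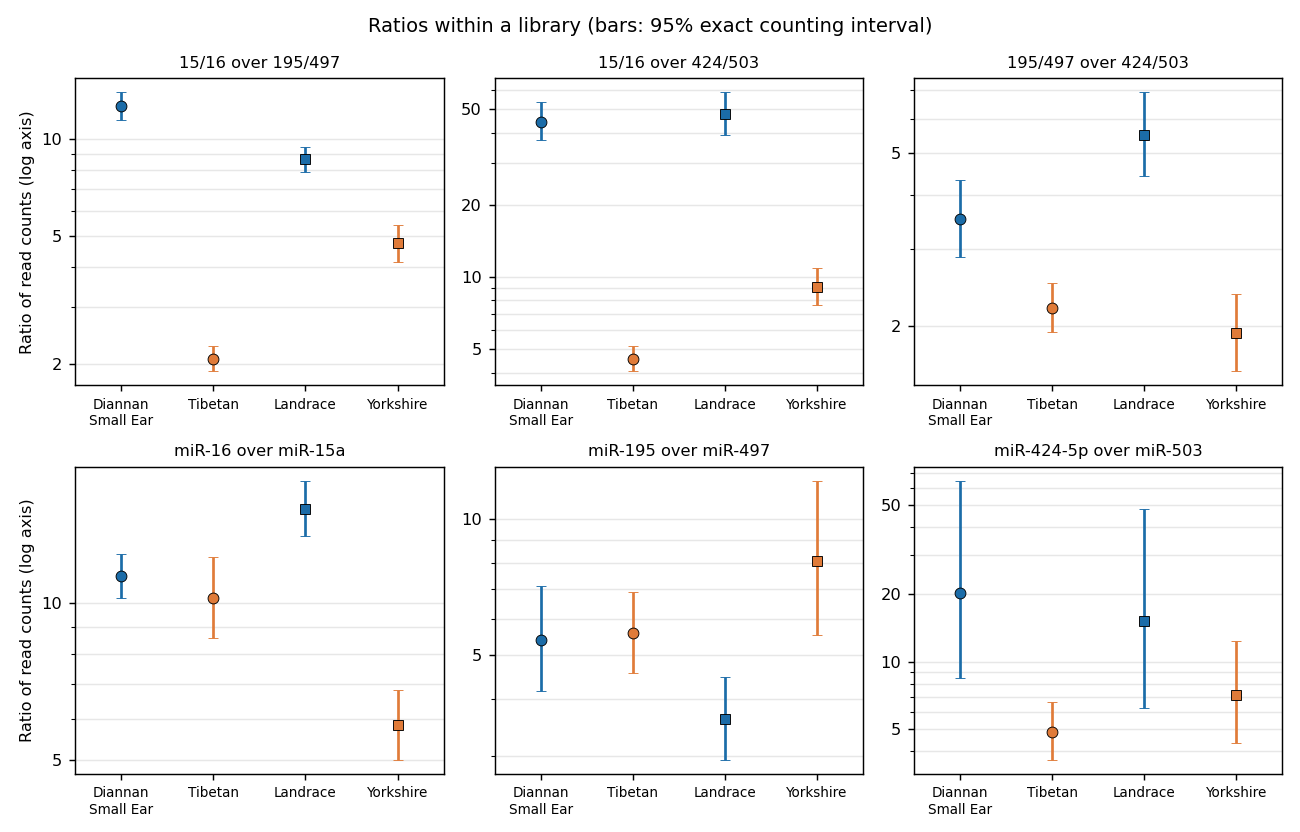
Ratios of read counts within each library (y axes, log scale) for pairs of clusters (upper row) and pairs of members of 1 cluster (lower row), with 95% exact counting intervals as bars. Diannan Small Ear and Landrace lie above Tibetan and Yorkshire in all 3 cluster ratios, whereas in miR-16 over miR-15a the Diannan Small Ear and Tibetan values, 11.3 and 10.2, lie together.

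Both arms of the miR-424 hairpin were listed. The 3p arm is in the family by name alone, and is included in all tallies of family rows and in the miR-424/miR-503 cluster. The 5p arm, the usual guide strand, had 102 reads in Diannan Small Ear and 278 in Tibetan, and 76 in Landrace and 128 in Yorkshire. The 3p arm had 17 reads in Diannan Small Ear and 17 in Landrace, 1 in Tibetan and 0 in Yorkshire. The 5p arm therefore exceeded the 3p arm 6.0-fold in Diannan Small Ear (3.57 to 10.7) and 4.47-fold in Landrace (2.62 to 8.07), 278-fold in Tibetan on the strength of a single 3p read (49.5 to 11019), and at least 42.7-fold in Yorkshire, with the 0 counted as up to 3 reads. Diannan Small Ear and Landrace, the libraries with the lower 5p levels after TMM scaling, thus held all but 1 of the 3p reads. By CPM of the total, Yorkshire, with no 3p read, had a lower 5p level than Landrace.

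miR-16 was the most abundant member in each library. It had 5008 reads in Diannan Small Ear and 1379 in Tibetan, and 4356 in Landrace and 1131 in Yorkshire. These were 835, 390, 785 and 614 TMM-scaled CPM in the same order, or 1113, 384, 1737 and 212 CPM of the library total. Tibetan was lowest by the first scale and Yorkshire by the second. miR-15a, its cluster partner, had 445 reads in Diannan Small Ear and 135 in Tibetan, and 287 in Landrace and 194 in Yorkshire, or 74.2, 38.2, 51.7 and 105 TMM-scaled CPM. It was highest in Yorkshire on that scale, but by CPM of the total (98.9, 37.6, 114 and 36.3) Yorkshire was lowest. miR-15b, encoded within SMC4, was far scarcer, at 58, 23, 32 and 8 reads or 9.67, 6.50, 5.77 and 4.34 TMM-scaled CPM. With TMM scaling its levels in the 2 breeds of a type differed by less than counting error, but by total counts Diannan Small Ear had 2.01-fold more than Tibetan (1.22 to 3.42) and Landrace 8.53-fold more than Yorkshire (3.85 to 21.4).

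miR-195, abundant in postnatal striated muscle of mice, had 368 reads in Diannan Small Ear and 627 in Tibetan, and 423 in Landrace and 250 in Yorkshire. Its TMM-scaled CPM were 61.4, 177, 76.3 and 136, so Tibetan and Yorkshire were above the others, while by total counts (81.8, 175, 169 and 46.8 CPM) Landrace joined Tibetan and Yorkshire was lowest. miR-497 had 68, 112, 117 and 31 reads in the same order of breeds, or 11.3, 31.7, 21.1 and 16.8 TMM-scaled CPM. By total counts (15.1, 31.2, 46.7 and 5.80 CPM) Landrace was highest and Yorkshire lowest. miR-424-5p had 17 TMM-scaled CPM in Diannan Small Ear against 78.6 in Tibetan, and 13.7 in Landrace against 69.5 in Yorkshire. miR-503, whose seed also belongs to the wider group that takes in miR-103 and miR-107, had 5 reads in Diannan Small Ear and 57 in Tibetan, and 5 in Landrace and 18 in Yorkshire, or 0.834, 16.1, 0.901 and 9.77 TMM-scaled CPM. The values of miR-424-5p and of miR-503 formed a high pair, Tibetan and Yorkshire, and a low pair, Diannan Small Ear and Landrace. By total counts that pairing remained for miR-503 (1.11, 15.9, 1.99 and 3.37 CPM), whereas miR-424-5p (22.7, 77.4, 30.3 and 23.9 CPM) was high in Tibetan alone.

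**Figure D3:**
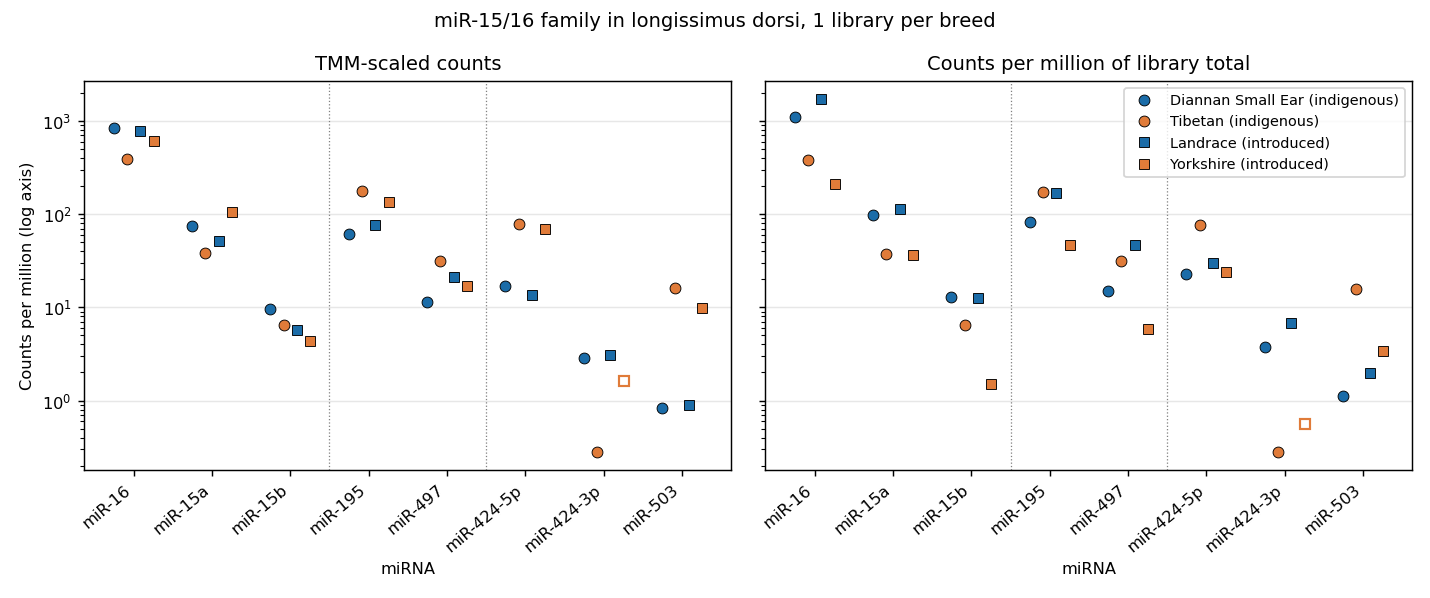
Level of each family row (x axis) in each library on a log y axis, as TMM-scaled CPM (left) and as CPM of the library total (right). Circles are indigenous and squares introduced breeds, and the open square marks miR-424-3p in Yorkshire, at 0 reads, drawn at the level of 3 reads. miR-424-5p, at 17 TMM-scaled CPM in Diannan Small Ear and 13.7 in Landrace, lies below 78.6 in Tibetan and 69.5 in Yorkshire.

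The comparison of types asks whether the family differs between indigenous and introduced pigs. None of the 8 rows passed (edgeR's quasi-likelihood test with Benjamini-Hochberg adjustment, adjusted p = 0.996 for each), and the estimates divided into 5 higher and 3 lower in indigenous breeds, with a median log2 fold change of 0.17. Over all 197 tested miRNAs 0% (0 miRNAs) passed, 1 had an unadjusted p under 0.05, 120 estimates were higher, 77 lower, and the median was 0.12. DESeq2 and limma-voom called 0 miRNAs as well, with 1 unadjusted p under 0.05 each. The biological coefficient of variation between libraries of a type was 98.6%.

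miR-16 averaged 613 ± 315 TMM-scaled CPM in indigenous and 700 ± 121 in introduced breeds (SD, n = 2 each), and its log2 fold change was -0.19 ± 0.89 (SE). miR-15a averaged 56.2 ± 25.5 in indigenous and 78.5 ± 37.9 in introduced breeds (-0.48 ± 0.98). miR-15b, at 8.09 ± 2.24 in indigenous and 5.06 ± 1.01 in introduced breeds (0.67 ± 0.78), had the smallest p of the family, rank 25 of the 197. It was the single member whose types did not overlap after TMM scaling, 1 of 8 where 13.7% of all tested miRNAs did so, and by total counts they overlapped (0 of 8, against 2.03% of all).

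miR-195 averaged 119 ± 81.9 in indigenous and 106 ± 42.0 in introduced breeds (log2 fold change 0.17 ± 1.00), miR-497 21.5 ± 14.4 and 19.0 ± 3.01 (0.18 ± 1.00), and miR-424-5p 47.8 ± 43.5 and 41.6 ± 39.4 (0.20 ± 1.35), in TMM-scaled CPM. miR-503 had 0.70 ± 1.79 and miR-424-3p -0.08 ± 1.58 as log2 fold changes. In each of these rows the SD within the indigenous type exceeded the difference between the types. Leaving out Tibetan turned the estimate of miR-503 to -2.58, of miR-424-5p to -1.28, of miR-195 to -0.78, of miR-497 to -0.74, of miR-424-3p to 0.73 and of miR-16 to 0.26. Leaving out Landrace turned those of miR-424-5p to -0.39, miR-503 to -0.073, miR-195 to -0.036, miR-424-3p to 5.68 and miR-16 to 0.16. Leaving out Yorkshire turned miR-497 to -0.10 and miR-15a to 0.0012, and leaving out Diannan Small Ear turned none of the 8.

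Cluster shares were compared between the types over libraries. The miR-15/miR-16 share averaged 74.8% ± 22.6 in indigenous and 81.9% ± 8.66 in introduced breeds, the miR-195/miR-497 share 17.7% ± 14.9 and 13.1% ± 4.10, and the miR-424/miR-503 share 7.45% ± 7.65 and 5.07% ± 4.56 (SD over 2 libraries each). None of 14 shares and log2 ratios tested passed between the types in a two-sided exact permutation test (adjusted p = 1.0 for each, raw p between 0.333 and 1.0). With 2 libraries against 2, this test cannot give a p below 0.333.

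The authors' deposited table lists other outcomes for the same contrast. In it miR-16 has a fold of 0.768 for indigenous over introduced (FDR 3.42e-07) and miR-424-5p a fold of 1.84 (FDR 0.0332). These were the 2 members with an FDR under 0.05 in the authors' deposited table, where 83 of 271 miRNAs (30.6%) were under it, and no source used here names the test behind that column. The deposited folds are ratios of mean CPM of the library total, not of TMM-scaled values. On that scale miR-424-5p had 77.4 CPM in Tibetan against 22.7 in Diannan Small Ear, 30.3 in Landrace and 23.9 in Yorkshire. miR-16 had 1737 CPM in Landrace against 1113 in Diannan Small Ear, 384 in Tibetan and 212 in Yorkshire.

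Between the breeds of a type, each with 1 library and so with no replicate check, the cluster sums moved apart after TMM scaling. The miR-15/miR-16, miR-195/miR-497 and miR-424/miR-503 sums had ratios of 2.12, 0.348 and 0.218 for Diannan Small Ear over Tibetan. For Landrace over Yorkshire these were 1.16, 0.638 and 0.223, though there miR-16 was higher and miR-15a lower in Landrace. In Diannan Small Ear against Tibetan, 6 of the 8 rows differed at least 2-fold after TMM scaling, 2 higher and 4 lower, where 64.2% of all miRNAs did (26.4% higher and 37.7% lower). miR-16 was 2.14-fold higher in Diannan Small Ear (95% exact interval 2.02 to 2.28) and miR-15a 1.94-fold higher (1.60 to 2.38). In the other direction, Diannan Small Ear was 2.89-fold below Tibetan for miR-195 (2.54 to 3.29), 2.79-fold for miR-497 (2.05 to 3.83), 4.62-fold for miR-424-5p (3.67 to 5.85) and 19.3-fold for miR-503 (7.81 to 61.8). miR-424-3p went against its own 5p arm, at 10-fold higher (1.57 to 419) from 17 reads against 1. These 4 lower rows were at least 2-fold lower by total counts too (34.4% of all miRNAs). On that scale 4 rows were at least 2-fold higher, with miR-15a and miR-15b joining miR-16 and miR-424-3p (77 of all 212 miRNAs).

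In Landrace against Yorkshire, 3 of 8 rows differed at least 2-fold after TMM scaling, all lower in Landrace, where 65.3% of all miRNAs differed (31.7% higher and 33.7% lower). The 3 were miR-503, 10.8-fold lower (3.88 to 37.4), miR-424-5p, 5.07-fold lower (3.79 to 6.83), and miR-15a, 2.03-fold lower (1.69 to 2.45). miR-16 was 1.28-fold higher (1.2 to 1.37), miR-195 1.78-fold lower (1.52 to 2.09) and miR-497 1.25-fold higher with an interval that spans no difference (0.837 to 1.93). By total counts 6 of 8 rows were at least 2-fold higher in Landrace (73.3% of all miRNAs), miR-15a turned to 3.15-fold higher, miR-195 to 3.61-fold higher (3.08 to 4.24) and miR-424-5p to 1.27-fold higher (0.940 to 1.69), and miR-503 was 1.69-fold lower (0.604 to 5.82). The log2 ratios were also set against the median of all miRNAs in the comparison. Such a difference is the same under each scaling, but it takes the median miRNA as the reference. For Landrace over Yorkshire it was 0.46 for miR-16, -0.92 for miR-15a, -0.73 for miR-195, 0.43 for miR-497, -2.24 for miR-424-5p and -3.33 for miR-503. The same measure for Diannan Small Ear over Tibetan was 1.29 for miR-16, 1.15 for miR-15a, -1.34 for miR-195, -1.29 for miR-497, -2.02 for miR-424-5p and -4.08 for miR-503. miR-424-5p and miR-503 were below the median in both comparisons, where 22.6% and 18.3% of all miRNAs lay lower than miR-424-5p and 7.55% and 8.91% lower than miR-503 (Diannan Small Ear over Tibetan first), while miR-15a and miR-497 lay on opposite sides of it in the 2 types.

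**Figure D4:**
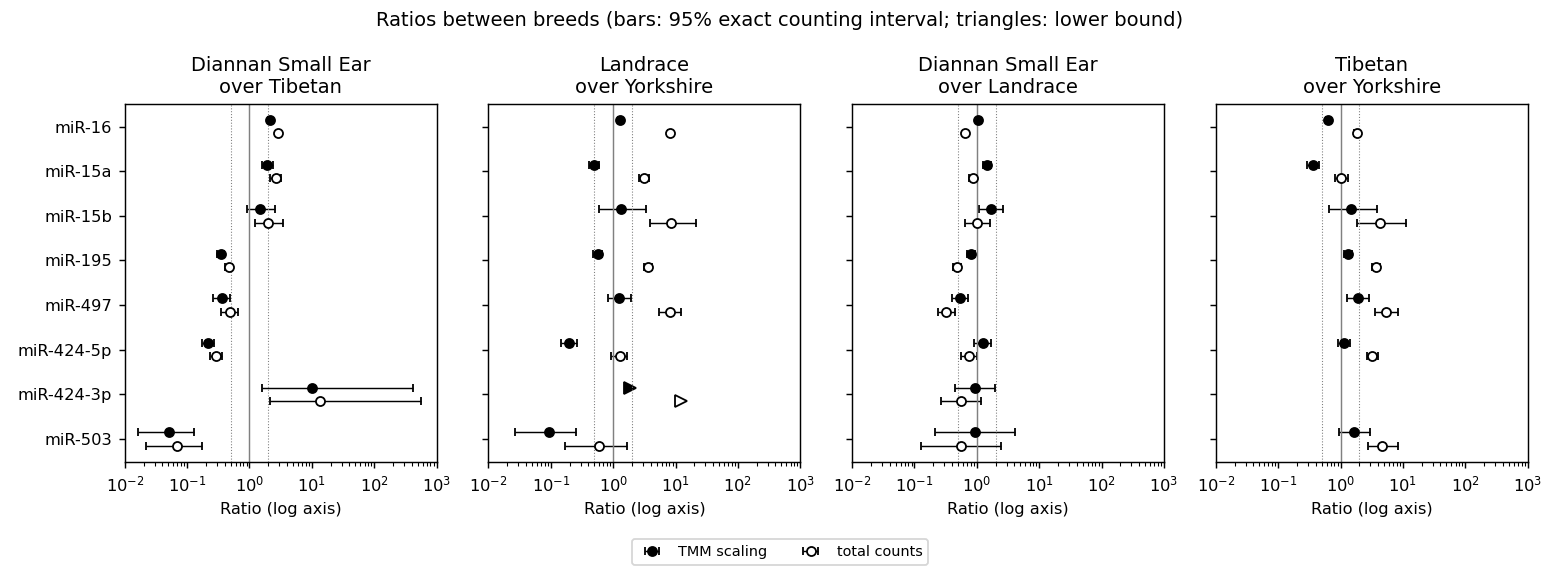
Ratio of each family row between 2 breeds (x axes, log scale), with TMM scaling (filled) and total counts (open), 95% exact counting intervals as bars, and dotted lines at 2-fold either way. Triangles are lower bounds where 1 library had 0 reads. In Diannan Small Ear over Tibetan and in Landrace over Yorkshire with TMM scaling, miR-424-5p was 4.62-fold and 5.07-fold lower, and in the 2 other panels only miR-15a, in Tibetan over Yorkshire, passes 2-fold with that scaling.

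Between the libraries that resembled each other across the types, 2-fold differences after TMM scaling were fewer than within a type. This held for the members and for all miRNAs, and the pairs come from these values. In Diannan Small Ear against Landrace 0 of the 7 rows with at least 10 reads in either library differed 2-fold (13.8% of all miRNAs). miR-16 was 1.06-fold higher in Diannan Small Ear (1.02 to 1.11), miR-15a 1.43-fold higher (1.23 to 1.67) and miR-497 1.86-fold lower (1.37 to 2.55). By total counts 2 of 7 rows were at least 2-fold lower, miR-195 and miR-497 (32% of all), and miR-16 turned to 1.56-fold lower (1.5 to 1.63). In Tibetan against Yorkshire 1 of 7 differed 2-fold after TMM scaling (25.7% of all), namely miR-15a, 2.76-fold lower in Tibetan (2.20 to 3.46; 9.09% of all were lower), with miR-16 1.57-fold lower (1.45 to 1.71) and miR-497 1.88-fold higher (1.25 to 2.90). By total counts 5 of 7 rows, all but miR-15a and miR-16, were instead at least 2-fold higher in Tibetan (82.4% of all), miR-15a was 1.04-fold higher (0.825 to 1.30) and miR-16 1.81-fold higher (1.68 to 1.96). miR-15a and miR-16 were thus on the higher side in the indigenous library of the first pair and on the lower side in that of the second, with TMM scaling, and miR-497 the reverse.

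The miRNAs with a pattern most like each member were found among the 138 miRNAs with a mean of at least 10 TMM-scaled CPM, by the root mean square difference of centred log2(CPM + 1) over the 4 libraries. For miR-16 these were miR-98 (0.12), miR-30e-3p (0.25), let-7d-3p (0.27), miR-26a (0.29) and miR-151-5p (0.30), and for miR-15a miR-365-3p (0.19), miR-133b (0.26), miR-885-5p (0.35), miR-151-5p (0.37) and miR-133a-3p (0.47). The closest to miR-195 were miR-450b-5p (0.06), miR-199b-3p (0.10), miR-199a-3p (0.11), miR-103 (0.19) and miR-140-3p (0.23), and to miR-497 miR-451 (0.20), miR-139-5p (0.28), miR-103 (0.32), miR-199b-3p (0.32) and miR-214 (0.35). miR-424-5p lay nearest to miR-145-3p (0.06), miR-199b-5p (0.13), miR-24-3p (0.19), miR-339-5p (0.20) and miR-17-5p (0.20). Within the family miR-195 and miR-497 were 0.40 apart and miR-15a and miR-16 0.49, against 0.56 between miR-195 and miR-424-5p and 1.5 between miR-16 and miR-424-5p. Cluster partners were not among each other's 5 nearest. miR-15a was at rank 25 of 137 for miR-16, and miR-16 at rank 7 for miR-15a. miR-497 was at rank 15 for miR-195, and miR-195 at rank 13 for miR-497. With 4 libraries these are descriptions only.

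Among the wider seed group, miR-103, which has a seed shifted against that of miR-15 and a role in metabolism, had 62.4 TMM-scaled CPM in Diannan Small Ear and 221 in Tibetan, and 86.5 in Landrace and 119 in Yorkshire, the order of miR-195. miR-107 had 7.0, 4.52, 9.19 and 4.34 in the same order of breeds, with Diannan Small Ear and Landrace higher, as for miR-16. miR-646 was not among the listed rows. Neither miR-103 (log2 fold change 0.46 ± 1.02) nor miR-107 (-0.24 ± 0.84) passed between the types (edgeR adjusted p = 0.996).

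Of other miRNAs tied to restraint of the cell cycle, miR-34b, miR-449a and miR-26b were not among the listed rows. The rest (members of the let-7, miR-34, miR-26 and miR-29 families, miR-145, miR-1 and miR-206) had 18 tested rows, 0 of which passed between the types. Of these 4 were higher and 14 lower in indigenous breeds at a median log2 fold change of -0.23, where 120 of all tested miRNAs were higher and 77 lower. The median was -0.37 with RLE, -0.48 with total-count scaling, -0.12 with a term for the library pair and -0.091 with limma-voom (5 higher and 13 lower). With the pair term, whose pairs (the Diannan Small Ear and Landrace libraries, and the other two) come from the values, 1 row of the list passed (edgeR adjusted p = 0.000107), miR-29b, with 6 and 9 reads in Diannan Small Ear and Tibetan and 38 and 65 reads in Landrace and Yorkshire. It did not pass with that term in DESeq2 (adjusted p = 0.211) or with total counts (0.999). Of miRNAs tied to proliferation, miR-18b, miR-106b, miR-93 and miR-25 were not among the listed rows. The others (members of miR-17-92 and paralogous clusters, miR-21, miR-221, miR-222 and miR-155) had 10 tested rows, and 0 passed. Of these 7 were higher and 3 lower, with a median of 0.19. With RLE scaling these were 6 and 4, and with the pair term 5 and 5. In Diannan Small Ear against Tibetan, 8 of 12 proliferation rows were at least 2-fold lower and 1 higher (37.7% and 26.4% of all miRNAs), and in Landrace against Yorkshire 5 of 9 were lower and 2 higher (33.7% and 31.7% of all). By total counts the second split was 1 lower and 4 higher (7.43% and 73.3% of all). Of the restraint rows, with TMM scaling, 6 of 17 were at least 2-fold lower and 6 higher in Diannan Small Ear than in Tibetan. In Landrace against Yorkshire 7 of 19 were lower and 6 higher. By total counts these restraint splits were 6 lower and 9 higher, and 2 lower and 13 higher. miR-21, a growth-linked miRNA and the most abundant of the list, had 603 TMM-scaled CPM in Diannan Small Ear and 7970 in Tibetan, and 864 in Landrace and 10580 in Yorkshire, a low and a high pair in the same libraries as for miR-424-5p.

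Markers of other cell types were read beside these values. The erythroid miRNAs miR-451 and miR-144 summed to 67.4 TMM-scaled CPM in Diannan Small Ear and 370 in Tibetan, and 117 in Landrace and 137 in Yorkshire, whereas miR-486, abundant in red cells and in muscle, had 88478, 5813, 64359 and 5792. Diannan Small Ear had 3.67-fold less miR-451 than Tibetan, opposite to miR-16, which red cells also carry, while Landrace had 1.19-fold more than Yorkshire, on the side of miR-16. miR-144 was lower in both comparisons, 37.1-fold and 6.97-fold. All 9 listed stromal rows summed to 11324 in Diannan Small Ear and 16986 in Tibetan, and 13677 in Landrace and 9091 in Yorkshire, mostly miR-143-3p (10758, 14557, 13014 and 7405). Row by row, 8 of 9 stromal rows were at least 2-fold lower and 0 higher in Diannan Small Ear than in Tibetan (median log2 ratio -2.15, against -0.19 for all miRNAs), and 4 of 8 lower and 0 higher in Landrace than in Yorkshire (-1.12, against -0.11), the direction of miR-195 and miR-424-5p. By total counts the second was 5 of 8 higher and 0 lower, against 73.3% and 7.43% of all miRNAs. With TMM scaling, 37.7% of all miRNAs were lower by that margin in the first comparison and 33.7% in the second. The 5 endothelial rows summed to 2526, 3018, 2925 and 1826, mostly miR-126-5p, which was 1.27-fold and 2.20-fold higher in Diannan Small Ear and Landrace than in the other breed of the type, whereas miR-126-3p was 7.89-fold and 3.21-fold lower. The 5 white blood cell rows, without miR-223, which was not listed, summed to 193, 320, 170 and 240. No marker row of these cell types was at 0. The part of cell composition in the family's values was not tested.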

How the data were processed

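Small RNA of longissimus dorsi was sequenced on an Illumina HiSeq, from Trizol-extracted total RNA, per the labels. Each known miRNA has a raw read count in each library, per the file headers. The deposited CPM values are the authors' counts over each column's total. The authors also deposited a mean signal per type, the fold ratio of these means and p-values with FDR, from a test that no source used here names. The aligner and the genome build behind the counts were not given in the sources used here; coordinates are left out.

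Counts were compared between types with edgeR 4.0.16 (two-sided quasi-likelihood test with glmQLFit and glmQLFTest, filterByExpr, TMM scaling, 197 miRNAs, Benjamini-Hochberg adjustment, threshold 0.05, 2 residual degrees of freedom). The SE was the log2 fold change over the root of its F statistic. Of these steps, only the edgeR fit was tested on simulated data. Breeds were compared by ratios of scaled counts with exact binomial 95% intervals and no test, among miRNAs with at least 10 reads in either library, and differences of at least 2-fold were counted, with 0 set to 3 reads. Shares have Wilson intervals, and 1 read was worth 0.187 to 0.399 CPM of the total. Alternatives were RLE, total-count and upper-quartile scaling, the table without its 5 most abundant miRNAs, no filter and a filter of 50 counts in 2 libraries, DESeq2 1.42.0, limma-voom (limma 3.58.1), a term for the library pair, each library left out, the more abundant arm alone and, chosen after seeing the data, the family sum without miR-16 and the pair term with DESeq2 or total counts. All family rows are named, with the 5 nearest patterns and the most abundant list members. miR-451, miR-144 and miR-107 and the library pairs were named for the lists or for earlier results. The members and lists were chosen with earlier results of these data known.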

Additional observations from a re-analysis of the deposited data

How the results depend on the processing

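The family passed the threshold in 0 of 8 rows in the main test and 0 under every alternative run, with each library left out as well. The count over all miRNAs was 0 throughout, except 1 with a term for the library pair (miR-29b, not a family row), and 0 with any library left out. The labels give no replicate numbers that would pair libraries. The pairing behind that term, of Diannan Small Ear with Landrace and of Tibetan with Yorkshire, comes from the values.

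Estimates of family members between the types changed sign under some settings without passing in any. As log2 fold changes, miR-497 was -0.019 with RLE, -0.18 with total-count and -0.029 with upper-quartile scaling, -0.079 without the 5 most abundant miRNAs, -0.019 with DESeq2, -0.0091 with the pair term and -0.14 with the pair term in DESeq2. miR-195 was -0.020 without the 5 most abundant miRNAs and -0.10 with the pair term in DESeq2. miR-424-3p was 0.21 with limma-voom, 0.089 with the pair term, 0.014 with that term and total counts and 0.42 with it in DESeq2, and miR-16 was 0.11 with the pair term and total counts. With 1 library left out, the estimates ranged from -1.15 to 0.0012 for miR-15a, 0.23 to 1.05 for miR-15b, -0.97 to 0.26 for miR-16, -0.78 to 0.63 for miR-195, -0.74 to 0.62 for miR-497, -1.28 to 1.67 for miR-424-5p, -2.58 to 5.68 for miR-424-3p and -2.58 to 3.05 for miR-503. These fits set 1 library against 2, so the lone library is assumed to vary like the others. The median over all miRNAs moved from 0.12 with TMM to -0.02 with RLE scaling.

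Ratios of the family sum moved with scaling. For Diannan Small Ear over Tibetan, 1.37 became 1.59 with RLE, 1.86 with total counts and 1.78 without the 5 most abundant miRNAs. For Landrace over Yorkshire, 1.00 became 1.16, 6.44 and 1.28, for Diannan Small Ear over Landrace 1.06 became 0.963, 0.637 and 0.960, and for Tibetan over Yorkshire 0.773 became 0.705, 2.21 and 0.692, under the same 3 settings. Without miR-16 the sums gave 0.509, 0.505 and 1.02 for the first, second and last of these. With total counts, of members whose direction turned, miR-15a became 3.15, miR-195 3.61 and miR-424-5p 1.27 for Landrace over Yorkshire, miR-16 1.81 and miR-15a 1.04 for Tibetan over Yorkshire, and miR-16 0.640, miR-15a 0.864 and miR-424-5p 0.748 for Diannan Small Ear over Landrace, where miR-16 was also 0.968 with RLE and 0.966 without the 5 most abundant miRNAs. The cause was not tested beyond the construction of each scaling. Cluster shares and cluster ratios stayed within their intervals with the more abundant arm alone. Of the 5 nearest patterns to miR-16, 3 were shared with total-count scaling. Depth limits miR-503 and miR-424-3p most, since 3 reads are 0.500 to 1.63 TMM-scaled CPM.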
